A study of Homo sapiens with 6 samples.

Results

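Canonical histone genes encode the linker histone H1 and the core histones H2A, H2B, H3 and H4, and they were taken from the count table by symbol. The rule kept the numbered H1 genes, the clustered H2AC, H2BC, H3C and H4C genes, H4-16, H2AW and H2BU1, which gave 66 of 30230 genes. Of these, 50 lie on chromosome 6, 15 on chromosome 1 and 1 on chromosome 12, and 5 are annotated as pseudogenes. There were 4 H1, 16 H2A, 20 H2B, 13 H3 and 13 H4 genes. Polyadenylated RNA was sequenced from A549, a line grown from a human lung adenocarcinoma, in 3 negative control (NC) and 3 FSCN1-silenced (siFSCN1) libraries. The siFSCN1 cells were transfected with a single siRNA against the actin-bundling protein gene FSCN1. NC cells received a scramble siRNA according to the study's methods, whereas the label names a control plasmid. All 6 libraries thus come from 1 cell line and 1 siRNA sequence, and each group is described as 3 biological replicates.

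Most cellular mRNAs end in a poly(A) tail, but canonical histone mRNAs, made mainly during S phase, end just after a short stem-loop. The stem-loop binding protein SLBP holds this structure, the U7 small nuclear RNA guides the cut behind it, and the mRNAs are degraded when DNA synthesis stops. Oligo(dT) capture therefore recovers these transcripts poorly, and several histone genes are also known to give longer, polyadenylated transcripts that run past the stem-loop.

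The stem-loop was first located in each gene, because it is the end that a poly(A) selection does not see. The consensus of the histone stem-loop, 16 bases of which several may be any base, was searched on the coding strand of the GRCh38 genome, in the 200 bases after each stop codon annotated in GENCODE v44. All 61 of the 61 protein-coding members held a match, 23 to 68 bases after the stop codon (median 36 bases), against 72 (0.361%) of 19950 coding genes scanned. The 72 include the 61 members. The examples printed here cover both abundant members, the members with the largest differences and one member each of the H3 and H4 patterns. The 16 bases of the stem-loop are in capitals, with 5 bases of flank on each side, 5′ to 3′.
H1-2: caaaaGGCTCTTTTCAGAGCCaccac
H2BC12: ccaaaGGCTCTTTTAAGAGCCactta
H2BC5: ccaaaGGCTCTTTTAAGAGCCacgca
H2BC21: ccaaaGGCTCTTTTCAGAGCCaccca
H2AC20: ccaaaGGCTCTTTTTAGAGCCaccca
H3C6: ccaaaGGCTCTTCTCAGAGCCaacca
H4C8: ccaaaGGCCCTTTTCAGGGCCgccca
The capitals lie at chr6:26055744-26055759 on the minus strand in H1-2, chr6:27146366-27146381 (minus) in H2BC12, chr6:26158587-26158602 (plus) in H2BC5 and chr1:149886188-149886203 (minus) in H2BC21. They lie at chr1:149887391-149887406 (plus) in H2AC20, chr6:26225596-26225611 (plus) in H3C6 and chr6:26285131-26285146 (minus) in H4C8. The form shared by H1-2 and H2BC21 was the most frequent, in 36 members, and the form of H2BC5 and H2BC12 was found in 7. The form of H4C8 was found in 8 members, all of class H4, and those of H2AC20 and H3C6 in 1 member each.

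The stem-loop did not divide the members, since every coding member had one, but their annotated transcripts did. GENCODE v44 gives 17 members at least 1 transcript that is spliced or longer than 1000 bases, such as H2BC21 (ENSG00000184678.10, chr1:149884459-149886682), whose 2224-base transcript runs on past the stem-loop. The other 49 members, such as H1-2 (ENSG00000187837.4, chr6:26055740-26056470) and H2BC12 (ENSG00000197903.8, chr6:27146361-27146855), have only short, unspliced transcripts, which in these 2 genes end just past the stem-loop. The 5 pseudogenes are among the 49 and were not searched for one. The groups are called long and short members below. Some long members count as such by splicing alone. Among them is H3C12, whose longest transcript has 522 bases and whose annotated end lies just past its stem-loop. The length behind the deposited FPKM could be recovered from counts and FPKM for 51 members, and it exceeded 1000 bases for 20 of them, 8 of which were short in GENCODE v44. The gene models behind the deposited FPKM therefore differ from GENCODE v44 for those 8, among them H2BC19P, H2BC20P, H2AC11 and H4C9.

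The deposited counts summed to between 27967301 and 36560919 per library. FSCN1 was at 44.98, 47.24 and 45.99 FPKM (normalised for depth and gene length) in NC replicates 1 to 3 and at 4.46, 2.82 and 3.19 FPKM in siFSCN1, a log2 fold change of -3.89 (adjusted p = 8.1e-16, edgeR). The A549 epithelial markers KRT7, KRT8, KRT18, KRT19, EPCAM and CDH1 summed to 18088 CPM ± 1110 (counts scaled to library size, SD, n = 3) in NC, and to 9417 CPM ± 798 (SD, n = 3) after silencing. KRT7, KRT8, KRT18 and KRT19 were lower, whereas CDH1 (log2 fold change 1.35) and EPCAM (0.29) were higher, so the list did not move as one. Summed fibroblast markers stayed between 3.33 and 5.74 CPM and blood cell markers between 8.13 and 10.8 CPM. In these bulk libraries, fewer cells of a kind and less RNA per cell cannot be told apart.

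NC replicate 1 and siFSCN1 replicate 3 stood apart in RNAs that carry no poly(A) tail. The 135 such RNAs in the table, including RN7SL1 of the signal recognition particle, the RNase P and RNase MRP RNAs RPPH1 and RMRP, and small nucleolar RNAs, summed to 242.6, 41.6 and 31.6 CPM in NC replicates 1 to 3. They summed to 23.5, 28.9 and 272.7 CPM in siFSCN1. NC replicate 1 was 6.63 times the mean of the other NC libraries, and siFSCN1 replicate 3 was 10.4 times the mean of the other siFSCN1 libraries. The ranges of the groups overlapped. RN7SL1 alone showed ratios of 7.11 and 11.2, and SNORD3A, the U3 small nucleolar RNA, 14.6 and 39.6.

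Histone genes were a minor part of every library. The 66 members together held 3685, 2456 and 3563 counts in NC replicates 1 to 3 and 4204, 3905 and 4454 counts in siFSCN1, between 0.00878% and 0.0142% of each library. After TMM scaling these sums were 127.5, 93.3 and 104.1 CPM in NC and 122.2, 118.6 and 131.1 CPM in siFSCN1. The groups overlapped, with a difference in mean log2 sum of 0.21. H1-2 and H2BC12 alone supplied 31.4% to 50.4% of the histone counts of a library. At the other end, 15 members had 10 counts or fewer over all 6 libraries, and 37 fell below the expression filter and were not tested, with totals from 1 to 80 counts. The test thus covered 29 members, among 17076 genes, and the filter favours members that are high in either group.

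Per gene length, H2BC12, a core histone H2B gene, and H1-2, a linker histone gene, were far above the rest. H2BC12 stood at 40.23, 33.79 and 39.88 FPKM in NC replicates 1 to 3 and 27.40, 22.90 and 25.28 FPKM in siFSCN1. H1-2 stood at 30.48, 26.89 and 30.56 FPKM in NC and 35.31, 33.40 and 32.95 FPKM in siFSCN1. H2BC12 was lower in every siFSCN1 library than in any NC library, and H1-2 on the deposited FPKM scale was higher in every one, although its TMM-scaled CPM overlapped between groups. Below them came H2AC6, H2AW, H2AC20 and H2BC5 with NC means of 5.71, 5.12, 3.79 and 3.25 FPKM. The NC ranges of H2AC20 and H2BC5 overlapped, and those of H2AC6 and H2AW lay side by side. The deposited FPKM of H2AW, a divergently transcribed H2A gene of chromosome 1, lay between 4.86 and 5.85 in all 6 libraries. No other member reached a mean of 2 FPKM in NC.

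**Figure D1:**
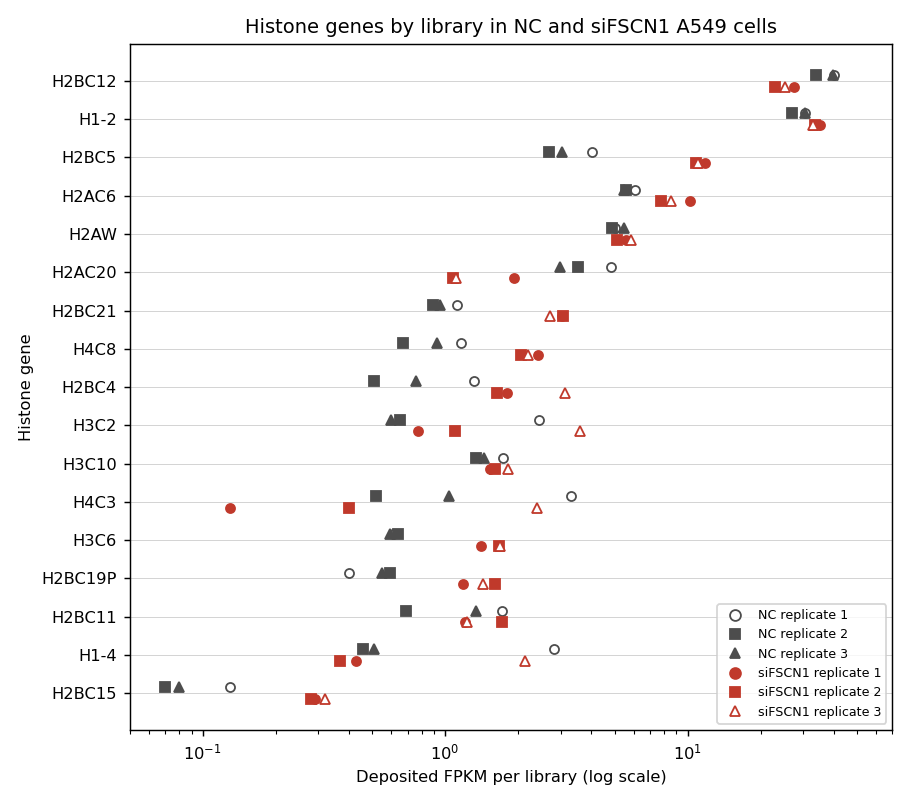
Deposited FPKM (horizontal log axis) of the 17 named members, one row per gene, in each of the 3 NC (grey) and 3 siFSCN1 (red) libraries. Open symbols mark NC replicate 1 and siFSCN1 replicate 3, which lie to the right of their groups for H1-4, H4C3 and H3C2, whereas the red symbols of H2BC5 and H2BC21 lie together, to the right of all grey ones.

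The comparison of siFSCN1 with NC asks which transcripts differ when FSCN1 is silenced. Of the 29 members tested, 10 were higher and 3 lower in siFSCN1 at an adjusted p under 0.05, where 68.3% of all genes tested passed (35.1% higher, 33.2% lower). With a fold change of at least 2 as well, 7 members were changed upwards and 1 downwards, where 16.5% of all genes passed (11.7% higher, 4.85% lower). The share of members that passed was thus 44.8% at the adjusted p alone and 27.6% with the fold limit. The CPM values of 12 members (41.4%) did not overlap between the groups, against 71.3% of all genes. The median log2 fold change was 0.04 over the members tested and 0.03 over all genes. The median of the members was not stable to the libraries used, at 0.48 without NC replicate 1, 0.37 without NC replicate 1 and siFSCN1 replicate 3, and -0.11 without NC replicate 2.

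H2BC5, an H2B gene that gives a spliced transcript beside the short one, had the largest difference upwards. Its levels were 4.03, 2.67 and 3.04 FPKM in NC replicates 1 to 3 and 11.80, 10.84 and 11.00 FPKM in siFSCN1. NC averaged 3.25 FPKM ± 0.703 (SD, n = 3), siFSCN1 averaged 11.2 FPKM ± 0.514 (SD, n = 3), and the fitted difference was 3.07-fold (log2 fold change 1.62, SE 0.14, adjusted p = 6.05e-09). No siFSCN1 library came near the NC libraries. H2BC21, the H2B gene of chromosome 1 whose annotated transcript passes its stem-loop, stood at 1.12, 0.89 and 0.95 FPKM in NC and 3.03, 3.07 and 2.72 FPKM in siFSCN1. Its log2 fold change was 1.41 (SE 0.13, adjusted p = 2.06e-08), and its libraries also fell into separate ranges. Without NC replicate 1 and siFSCN1 replicate 3 the log2 fold changes were 1.81 for H2BC5 and 1.55 for H2BC21.

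The other members changed upwards were lower in level. H3C6, an H3 gene with a spliced transcript of 2679 bases, stood at 0.61, 0.64 and 0.59 FPKM in NC and 1.41, 1.67 and 1.68 FPKM in siFSCN1 (log2 fold change 1.21). H4C8, an H4 gene, stood at 1.16, 0.67 and 0.93 FPKM in NC and 2.41, 2.05 and 2.20 FPKM in siFSCN1, a 2.14-fold difference. Both kept the groups apart. H2BC15 stood at 0.13, 0.07 and 0.08 FPKM in NC and 0.29, 0.28 and 0.32 FPKM in siFSCN1 (1.49), on no more than 66 counts in a library. H2BC4 stood at 1.31, 0.51 and 0.76 FPKM in NC and 1.80, 1.64 and 3.11 FPKM in siFSCN1 (1.17, SE 0.31, adjusted p = 0.00264). The wider spread of H2BC4 followed the libraries, since NC replicate 1 was 2.10 times the other NC libraries and siFSCN1 replicate 3 was 1.82 times the other siFSCN1 libraries. H2BC4 also spans H4C3 on the opposite strand, and because no source says whether counting used strand, reads of the pair cannot be assigned with certainty. The log2 fold change of H2BC4 was 0.92 without NC replicate 2 and 0.81 without siFSCN1 replicate 3, and that of H4C8 was 0.92 without NC replicate 2, each then under 2-fold.

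A pair of H2B pseudogenes also rose. H2BC19P, in the chromosome 1 cluster, stood at 0.40, 0.59 and 0.55 FPKM in NC and 1.18, 1.60 and 1.43 FPKM in siFSCN1 (log2 fold change 1.28). H2BC20P was at 0.31, 0.30 and 0.43 FPKM in NC and 0.70, 0.75 and 0.78 FPKM in siFSCN1 (0.92, adjusted p = 1.48e-05). Both are uncertain as gene values, because 94.7% and 78.5% of their 75-base windows recur in other histone genes. Each also lies within a longer unnamed gene on the same strand, and the deposited FPKM imply models of 3612 and 6452 bases. In GENCODE v44, H2BC5, H3C6 and H2AC6 likewise overlap unnamed genes on the same strand, and H4C8 overlaps unnamed genes on the opposite strand. Reads in these overlaps cannot be assigned with certainty. The other members that passed upwards were H2AC6, an H2A gene with spliced transcripts, and H2AC11. H2AC6 stood at 6.09, 5.57 and 5.48 FPKM in NC and 10.20, 7.77 and 8.57 FPKM in siFSCN1, with a log2 fold change of 0.46 (adjusted p = 0.000481), and its groups did not overlap. H2AC11 had a log2 fold change of 0.59 (adjusted p = 0.0367), with overlapping CPM, and it no longer passed without NC replicate 1 and siFSCN1 replicate 3 (adjusted p = 0.0739).

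H2AC20, an H2A gene with a single short transcript, was the only member changed downwards. It stood at 4.85, 3.54 and 2.99 FPKM in NC and 1.92, 1.08 and 1.11 FPKM in siFSCN1; NC averaged 3.79 FPKM ± 0.956 (SD, n = 3) against 1.37 FPKM ± 0.477 (SD, n = 3) in siFSCN1. This corresponded to a log2 fold change of -1.63 (SE 0.26, adjusted p = 2.54e-05), and all siFSCN1 libraries lay below all NC libraries. H2BC12 fell by 0.76 on the log2 scale (SE 0.08, adjusted p = 1.13e-07), short of the fold limit. H4C9 stood at 0.91, 0.86 and 0.54 FPKM in NC and 0.39, 0.43 and 0.49 FPKM in siFSCN1, with a log2 fold change of -0.97 (adjusted p = 0.00657). All of these are short members in GENCODE v44. Without NC replicate 1 and siFSCN1 replicate 3 the log2 fold changes were -1.28 for H2AC20, -0.73 for H2BC12 and -0.92 for H4C9. H1-2, the other abundant short member, had a log2 fold change of 0.04 (adjusted p = 0.537), which became 0.16 with upper quartile scaling and 0.23 with library totals, where it passed an adjusted p of 0.05.

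**Figure D2:**
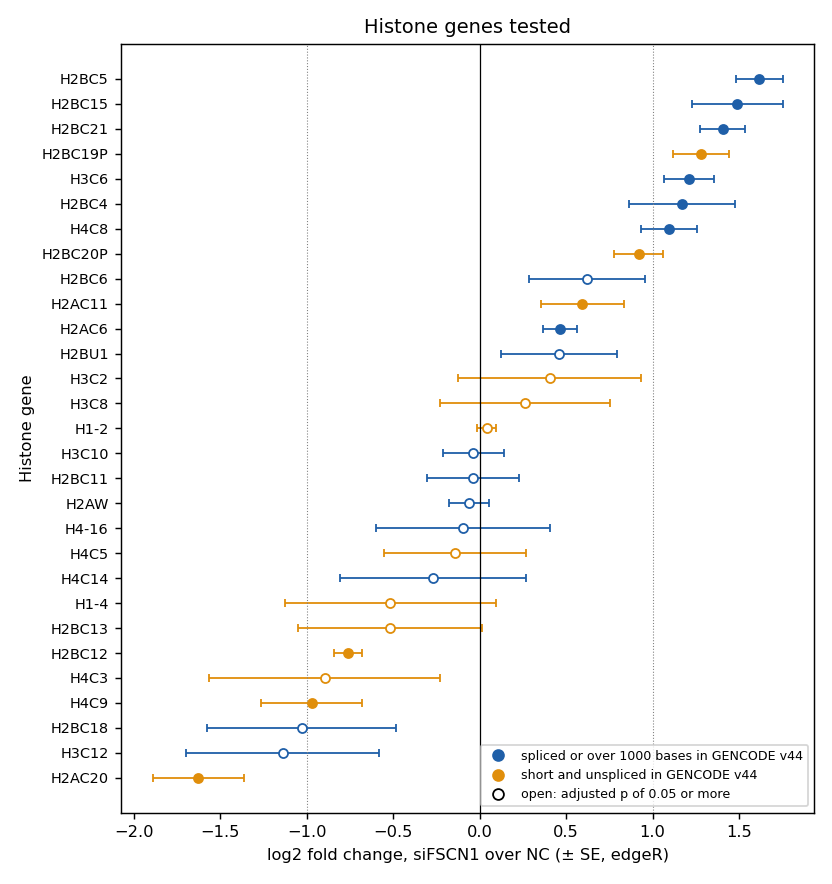
Fitted log2 fold change of siFSCN1 over NC (horizontal axis, bars ± SE, edgeR) for the 29 members tested, ordered by value. Blue marks members with a spliced or over 1000-base transcript in GENCODE v44 and orange the short members, filled symbols an adjusted p under 0.05, and dotted lines a 2-fold difference. Filled blue symbols lie only to the right of 0, up to 1.62 for H2BC5, and filled orange symbols lie on both sides, down to -1.63 for H2AC20.

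The counts by transcript type depended on the gene models. Among the 17 long members 16 were tested, of which 7 were higher and none lower at an adjusted p under 0.05 by edgeR. This was 43.8% of those tested, against 68.3% of all genes (35.1% higher, 33.2% lower). None of the 9 other long members had an unadjusted p under 0.05 either. With the fold limit 6 long members were changed upwards (37.5% of those tested, against 11.7% of all genes), and the median log2 fold change was 0.46. Among the 49 short members 13 were tested, with 3 higher, 3 lower (46.2%) and a median of -0.14. With the fold limit 1 was higher and 1 lower (15.4%, against 16.5% of all genes). By DESeq2, with 10.8% of all genes changed upwards and 4.87% downwards, no long member was changed downwards. Without NC replicate 1 and siFSCN1 replicate 3, where 11.2% of all genes were changed upwards and 4.9% downwards, the long member H2BC18 was, with a log2 fold change of -1.38. Without siFSCN1 replicate 3 alone, the long members H2BC18 (-2.12) and H3C12 (-2.02) were both changed downwards, as they were with no filter and with the covariate of RNAs without poly(A) tails, and H3C12 was also without NC replicate 2 (-1.50) or NC replicate 3 (-1.49). When members were split at 1000 bases of the length behind the deposited FPKM, with the GENCODE v44 length where none was recovered, 5 of 18 tested long members (27.8%) were changed upwards and none downwards, and 2 of 11 tested short members were changed upwards and 1 downwards (27.3%). In that split, chosen after seeing the data, H2BC5 (871 bases) and H2BC4 (832 bases) were short members. The summed level of the 17 long members was 44.7, 32.8 and 36.4 CPM in NC and 62.4, 58.7 and 63.2 CPM in siFSCN1, a difference in mean log2 sum of 0.71 with no overlap. That of the 49 short members was 82.8, 60.5 and 67.7 CPM in NC and 59.8, 59.9 and 67.9 CPM in siFSCN1, a difference of -0.16 that overlapped and turned to 0.027 with library totals. Whether the 2 kinds of member differ in response was described by these values and not tested.

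H1-2 and H2BC12 held most of the short sum, and the rest differed from them across libraries. A further set was chosen after seeing the data. It held the 36 coding short members other than H1-2 and H2BC12 for which no recovered length exceeded 1000 bases. The length was recovered for 24 of them. These 36 members summed to 563, 167 and 221 counts in NC replicates 1 to 3 and 120, 125 and 378 counts in siFSCN1. These were 19.5, 6.34 and 6.46 CPM in NC and 3.49, 3.80 and 11.1 CPM in siFSCN1. NC replicate 1 was thus 3.04 times and siFSCN1 replicate 3 was 3.05 times the mean of the other libraries of the group, the same 2 libraries that were high in RNAs without poly(A) tails. The ratios of the long members were 1.29 and 1.04, close to the 1.29 and 1.13 of all 49 short members. Those of H1-2 and H2BC12 together were 1.09 and 0.978, and the 47 other short members gave 1.95 and 1.51. Among these sets the excess was largest in the set of 36, but that set was chosen after seeing the data and leaves out H1-2 and H2BC12. Its rank is therefore no separate support. The 37 members below the expression filter gave ratios of 3.56 and 2.74. Single long members could share the pattern of the short ones, namely H2BC18 (3.11 and 4.44), H3C12 (4.55 and 3.52) and H4-16 (1.66 and 3.08). Of these, H2BC18 and H3C12 are long by splicing alone, with longest transcripts of 999 and 522 bases. The part of RNA without poly(A) tails in the short histone sum was not tested. The difference between groups in mean log2 sum was -0.81, with overlap, and it was -0.81 also without these 2 libraries. Its direction depended on the set, since all 47 short members other than H1-2 and H2BC12 gave 0.12, and 0.24 without the 2 libraries.

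**Figure D3:**
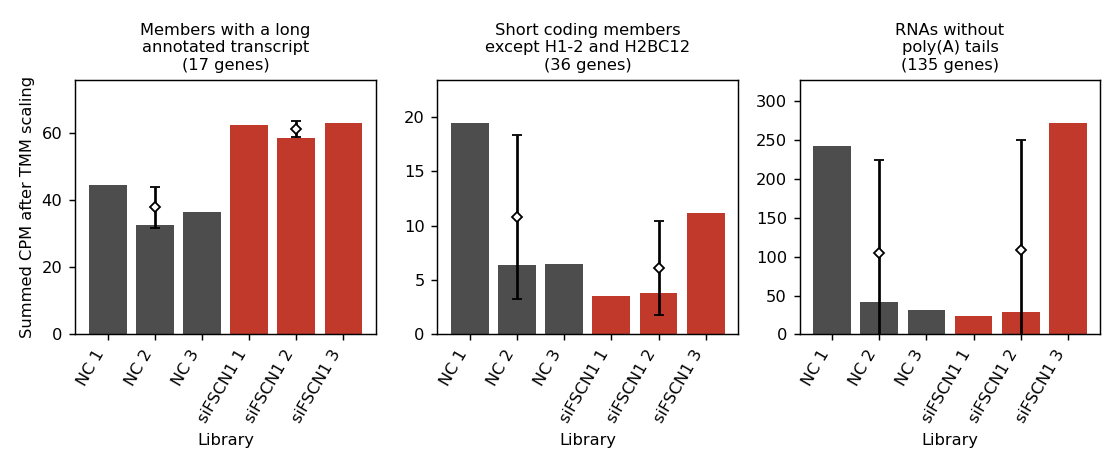
Summed CPM after TMM scaling (vertical axes, from 0) in each library for the 17 long members, for 36 short coding members without H1-2 and H2BC12, and for 135 RNAs without poly(A) tails. The set of 36 was chosen after seeing the data. Diamonds and bars give the mean ± SD of 3 libraries, the bar being cut at 0 where it would run below. In the middle and right panels NC replicate 1 (19.5 and 242.6 CPM) and siFSCN1 replicate 3 (11.1 and 272.7 CPM) exceed the other libraries of their group, and in the left panel all siFSCN1 libraries exceed all NC libraries.

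Single members are given as examples of the same library pattern. H1-4, H4C3 and H3C2 were named because a group mean reached 1 FPKM, and NC replicate 1 or siFSCN1 replicate 3 raised those means. Their pattern is therefore no separate support for high values in these libraries. H1-4, a linker histone gene, stood at 2.80, 0.46 and 0.51 FPKM in NC replicates 1 to 3 and 0.43, 0.37 and 2.13 FPKM in siFSCN1, so that 1 library of each group was over 5 times the mean of the others. H4C3, an H4 gene, stood at 3.30, 0.52 and 1.04 FPKM in NC and 0.13, 0.40 and 2.39 FPKM in siFSCN1. H3C2, an H3 gene, stood at 2.45, 0.65 and 0.60 FPKM in NC and 0.77, 1.10 and 3.59 FPKM in siFSCN1. In each of these genes NC replicate 1 and siFSCN1 replicate 3 were the highest of their groups, and none passed the test, with log2 fold changes of -0.52 (SE 0.61), -0.90 (SE 0.67) and 0.40 (SE 0.53). Their values between groups depended on the library left out. H4C3 reached a log2 fold change of -2.77 (adjusted p = 0.00283) and H1-4 of -1.80 (adjusted p = 0.0187) without siFSCN1 replicate 3, whereas H3C2 reached 1.38 (adjusted p = 0.0436) without NC replicate 1.

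Over all 66 members, NC replicate 1 had the highest CPM of its group in 46 (69.7%), against 34.1% of all genes tested. The corresponding values of siFSCN1 replicate 3 were 40 members (60.6%) and 35.0%. Both held for 45.5% of the members and 10.2% of all genes tested. Of the 29 members tested, NC replicate 1 was highest in 79.3%, siFSCN1 replicate 3 in 55.2% and both in 48.3%. NC replicate 1 was highest in 76.5% of the long and 67.3% of the short members, and siFSCN1 replicate 3 in 47.1% and 65.3%. The 37 members below the filter, which the test did not see, summed to 10.8, 2.92 and 3.13 CPM in NC and 1.42, 2.49 and 5.36 CPM in siFSCN1, with the same libraries on top. H1-3, with 80 counts the most abundant of them, had 39, 4 and 8 counts in NC and 0, 9 and 20 counts in siFSCN1. H2AC12, whose start lies 251 bases from that of H2BC12, had 20, 7 and 6 counts in NC and 0, 1 and 2 counts in siFSCN1.

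**Figure D4:**
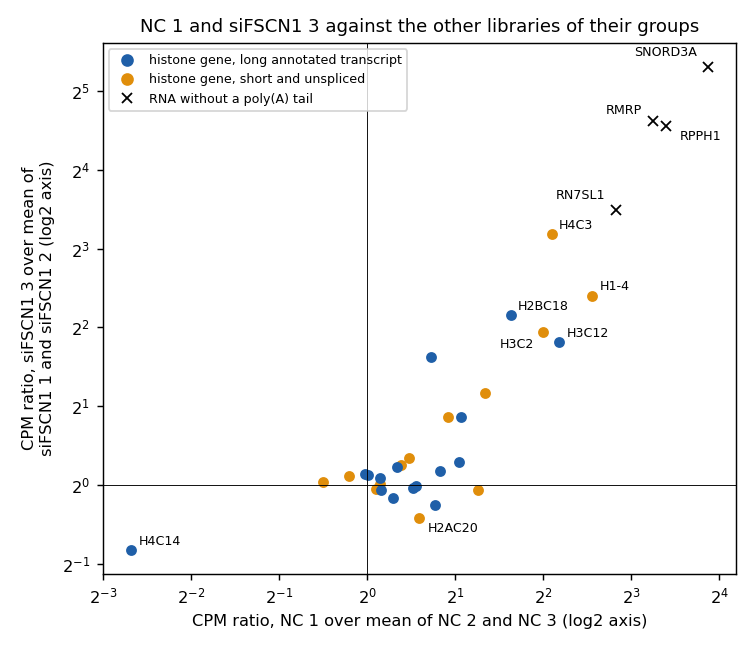
CPM of NC replicate 1 relative to the mean of NC replicates 2 and 3 (horizontal log2 axis) against CPM of siFSCN1 replicate 3 relative to the mean of siFSCN1 replicates 1 and 2 (vertical log2 axis), for the 29 members tested and 4 RNAs without poly(A) tails (crosses). H1-4 (5.89 and 5.29), H4C3 (4.28 and 9.06), H3C2 (3.99 and 3.84), H3C12 (4.55 and 3.52) and H2BC18 (3.11 and 4.44) lie towards the crosses at the upper right. H4C14 lies at the lower left. Other members lie near 1 on both axes, such as H3C6 (1.01 and 1.09), or in between, such as H2BC13 (2.52 and 2.24).

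H2A and H2B genes often lie head to head and share the stretch between their starts. There were 16 divergent pairs of members with starts at most 1000 bases apart, 14 of them an H2A with an H2B gene, and both partners were tested in 4. H2BC21 and H2AC20, whose starts are 236 bases apart on chromosome 1, moved in opposite directions. H2BC21 had 90, 65 and 89 counts in NC and 253, 252 and 228 counts in siFSCN1, and H2AC20 had 88, 58 and 63 counts in NC and 36, 20 and 21 counts in siFSCN1. The log2 ratio of H2BC21 to H2AC20 counts, with 0.5 added to each, averaged 0.23 ± 0.24 (SD, n = 3) in NC, against 3.28 ± 0.43 (SD, n = 3) in siFSCN1. The ratio within a library does not depend on scaling, and its groups did not overlap. In the pairs H2BC4 and H2AC6, H2BC11 and H2AC11, and H2AW and H2BU1 the ratio overlapped between groups. The partner of H2BC12, H2AC12, was below the filter, so that pair was not compared.

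Promoter letters differed by histone class. RefSeq promoters (300 bases around each start, GRCh38.p14) were matched for 53 members and searched on both strands. The octamer ATTTGCAT, known as the site of the POU factor OCT1, was found in 81.2% of H2B and 69.2% of H2A promoters and in no H1, H3 or H4 promoter, against 1.80% of all promoters. CCAAT was found in 84.9% of member promoters against 35.7% of all, and TATAAA in 37 of 53 (69.8%) against 3264 of 27305. The octamer was found in 46.2% of the promoters of long members and 40.0% of those of short members, and both H2BC21 and H2AC20 held it. Their starts are 236 bases apart, so the 300-base promoters can overlap and 1 site can count for both genes. The same can hold for other divergent H2A and H2B partners, so these shares are not separate counts of sites.

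Near-identical copies limit some members further. The H2AC18 and H2AC19, H3C14 and H3C15, and H4C14 and H4C15 copies share over 99% of their 75-base windows with another histone gene, and only uniquely mapped reads were counted. In total 13 members shared more than 50% of their windows. H4C14 was the only one of these 6 copies to pass the filter, with 2, 11 and 16 counts in NC and 9, 12 and 6 counts in siFSCN1.

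The genes that make and process histone mRNAs, by contrast, were well measured. SLBP, which binds the stem-loop, stood at 29.34, 31.10 and 29.11 FPKM in NC and 19.51, 19.12 and 19.60 FPKM in siFSCN1, a log2 fold change of -0.79 (SE 0.05, adjusted p = 1.12e-10). NPAT, the coactivator of histone gene transcription, stood at 0.71, 0.58 and 0.82 FPKM in NC and 0.70, 0.71 and 0.81 FPKM in siFSCN1, with a log2 fold change of -0.10 (adjusted p = 0.516). Of 34 genes for histone mRNA 3′ end processing and decay, 5 were higher and 21 lower at an adjusted p under 0.05 (76.5%, against 68.3% of all genes), with a median log2 fold change of -0.27. The named ones were SNRPF, a core protein of small nuclear ribonucleoproteins (-0.99), CSTF2, a cleavage factor (-0.97), and MIF4GD, which links SLBP to translation (-0.89). The 1 gene of the list past the fold limit went the other way, namely CTIF, a translation factor of the cap-binding complex, at 1.46, 1.42 and 1.60 FPKM in NC and 4.87, 4.58 and 4.45 FPKM in siFSCN1 (1.46). Of 19 tested genes for histone gene transcription and its cell cycle control, 2 were higher and 11 lower (68.4%, against 68.3% of all genes), with a median of -0.25. The lower ones named by rule, at 5 FPKM or more, were CCNA2 (-0.73), CDK2 (-0.65) and E2F4 (-0.43). Below that level, E2F2 (-1.15) was the 1 gene of the list past the fold limit. The 2 higher genes, also below it, were E2F3 (0.64) and POU2F1 (0.63).

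The replication-independent histone variants are made outside S phase as well, mostly from polyadenylated mRNAs. All 11 tested passed an adjusted p under 0.05 by edgeR, 2 higher and 9 lower in siFSCN1, against 68.3% of all genes, with a median log2 fold change of -0.48. H2AX, which is phosphorylated at DNA breaks, stood at 98.79, 96.91 and 97.32 FPKM in NC and 48.44, 39.78 and 40.64 FPKM in siFSCN1 (-1.35). H2AX was 1 of the 11 coding genes that held the stem-loop letters without being members. All 11 are histone genes, and most of them, such as H1-1 and H3C4, match the rule but have no row in the count table. H2AZ1 averaged 181 FPKM ± 3.09 (SD, n = 3) in NC, against 110 FPKM ± 6.05 (SD, n = 3) in siFSCN1 (-0.88), and H2AZ2 had a log2 fold change of -0.68. None of these 3 variants overlapped between groups, and no member reached the NC level of H2AX.

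Among 28 histone chaperones 7 were higher and 18 lower at an adjusted p under 0.05 (89.3%), with a median of -0.29. Of all genes tested 68.3% passed (35.1% higher, 33.2% lower). CHAF1A of the replication-coupled assembly factor (-0.74), SSRP1 of the FACT complex (-0.73) and NPM1 (-0.68) were named by rule. Of 46 DNA replication genes 1 was higher and 42 lower (93.5%, against 68.3% of all genes), with a median of -0.68. GMNN, the inhibitor of replication licensing, stood at 17.99, 18.18 and 19.94 FPKM in NC and 4.46, 3.55 and 3.66 FPKM in siFSCN1 (-2.43), and MCM10 (-1.91) and MCM7 (-1.21) were also lower. The medians of the replication genes and of the long histone members thus lay on opposite sides of the all-gene median of 0.03, a difference that was not tested. The median of the short members (-0.14) lay on the same side as that of the replication genes, and the median of all members tested was 0.04.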

How the data were processed

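Gene counts and FPKM of 6 poly(A) RNA libraries of A549 cells were used (3 NC, 3 siFSCN1, grouped by title). The authors deposited raw counts of uniquely mapped reads per gene, after trimming and alignment to GRCh38. The methods name HISAT2, and the tools in the submitters' processing notes are bcl2fastq and TopHat2. The deposited FPKM are scaled by the authors to gene length and depth. The labels describe a directional dUTP kit. The counting program, strand setting and annotation release were not given in the sources used here. The count table held no row without a gene.

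Members were matched to GENCODE v44 by gene ID, and 2 by symbol. Members and lists were chosen with earlier results of these data known. The main test was the quasi-likelihood test of edgeR 4.0.16 (R 4.3.3), with TMM scaling and no covariate, on the 17076 genes passing filterByExpr, with Benjamini-Hochberg adjustment over all of them. Changed means an adjusted p under 0.05 and at least 2-fold. Sums over members are given with no p, and ratios of sums are differences of mean log2 CPM. The fit was tested on simulated counts. Named genes were FSCN1, members with a mean of at least 1 FPKM in either group, other changed members, SLBP, NPAT and, from each other list, the 3 passing genes of largest log2 fold change among those without overlap and with at least 5 FPKM. Values of CTIF, E2F2, E2F3 and POU2F1 were chosen for print after they were seen. So were those of other members, such as H4C9, H2BC20P, H2AC11, H2AC12, H1-3, H2BC18, H3C12, H4-16 and H4C14. Alternatives were RLE, upper quartile and library-total scaling, DESeq2 1.42.0, no and stricter filters, a replicate block, leaving out libraries, the log2 sum of RNAs without poly(A) tails as a covariate, limma 3.58.1 on log2(FPKM + 0.1) and log2(FPKM + 1), glmTreat, and splitting members by splicing alone.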

Additional observations from a re-analysis of the deposited data

How the results depend on the processing

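The count of 7 members changed upwards was 1 by limma on log2(FPKM + 1) (H2BC5) and 2 by glmTreat (H2BC5 and H2BC21), and it ranged from 5 to 9 when 1 library was left out. The 1 member changed downwards became 2 with DESeq2 (H4C9 added), 9 with no filter, 4 with the covariate of RNAs without poly(A) tails (H2BC18, H4C3 and H3C12 added), 2 without NC replicate 1 and siFSCN1 replicate 3 together (H2BC18 added) and 0 by glmTreat, where H2AC20 no longer passed. Leaving out 1 library gave 1 to 6, with 2 without NC replicate 2, 3 without NC replicate 3 and 6 without siFSCN1 replicate 3. Members lower at an adjusted p under 0.05 numbered 3, and 12 with no filter, 6 with the covariate and 3 to 7 with 1 library left out, 7 without siFSCN1 replicate 3. The median log2 fold change of the members was 0.04, 0.79 under the stricter filter, which tests fewer members, -0.15 with no filter and -0.11 to 0.48 with 1 library left out. Library totals moved the median of all genes from 0.03 to 0.22 and the difference in log2 sum from 0.21 to 0.39 over all members, from 0.71 to 0.89 over long members and from -0.16 to 0.027 over short members. Upper quartile scaling moved the median of all genes to 0.15 and no filter moved it to 0.13. The short sum without H1-2 and H2BC12, chosen after seeing the data, gave 0.12. A split by the length the deposited FPKM imply, also chosen after seeing the data, gave 0.69 for the long and -0.11 for the short sum. Except where a construction is named, the cause was not tested. A tally over 35 named genes left out glmTreat, under which H2AC20 and other members lost their call. In it, 555 of 591 alternative values kept direction and their side of the adjusted p threshold. A further 9 newly passed it and 27, none of which passed it, turned in direction. Upper quartile scaling, library totals, limma on log2(FPKM + 0.1) and limma on log2(FPKM + 1) gave, in this order, 0.054, 0.12, 0.10 and 0.088 for H2AW, 0.080, 0.15, 0.20 and 0.10 for H2BC11, 0.081, 0.15, 0.13 and 0.082 for H3C10, and 0.019, 0.089, 0.073 and 0.033 for NPAT. With 1 library, or NC replicate 1 and siFSCN1 replicate 3 together, left out, log2 fold changes ran from -0.57 to 1.38 for H3C2, -0.026 to 0.083 for H1-2, -2.77 to 0.11 for H4C3, -1.80 to 0.84 for H1-4, -0.32 to 0.32 for H2BC11, -0.12 to 0.075 for H3C10 and -0.23 to 0.013 for NPAT.

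With the replicate number as a block, 7 members were changed upwards and 1 downwards. The numbers did not pair the libraries (correlations of deviations -0.03, 0.04 and -0.08). Counts of 10 or fewer over all libraries, found for 15 members, and 3 libraries a group limit what could be detected.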
